A study of Mus musculus with 230 samples.

Results

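The opioid peptide and receptor genes are 3 peptide precursors, Pdyn (prodynorphin), Penk (proenkephalin) and Pnoc (prepronociceptin), and 4 receptors, Oprm1 (mu), Oprd1 (delta), Oprk1 (kappa) and Oprl1 (the nociceptin receptor). They were taken by gene symbol through the Ensembl identifiers of the count table, and all 7 were found among its 43346 genes. The study sequenced RNA of 45 male C57BL/6J mice in 230 libraries, each from 1 of 6 brain regions. There were 39 libraries of the nucleus accumbens (NAc), 42 of the dorsal striatum or caudate putamen (CPu), 38 of the basolateral amygdala (BLA), 41 of the prefrontal cortex (PFC), 39 of the ventral hippocampus (vHipp) and 31 of the ventral tegmental area (VTA). All mice had self-administration sessions, with cocaine or with saline as its control. The CC mice (7 mice) had self-administered cocaine, went 30 d without it and then received 1 intraperitoneal injection of cocaine. The CS mice (6) had the same history and an injection of saline. The SC mice (8) had self-administered saline and received cocaine after 30 d, and the SS mice (8) had saline at both points. In these 4 groups tissue was taken 1 h after the injection. The C24 mice (8, cocaine) and the S24 mice (8, saline) were taken 24 h after the last session and received no injection. No label gives the mice a transgene or mutation, and their age is not stated. A mouse contributed 4 to 6 regions and belonged to 1 condition. A group of 1 region and 1 condition held 5 to 8 libraries, except the VTA of CS mice, which held 3.

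Libraries held 11866570 to 42135683 counted reads, and each opioid gene passed the filter on low counts in each region. Levels are given as CPM, read counts scaled to library size with TMM factors over the 230 libraries, and compared between genes only as CPM per kb of merged exons. The labelled regions were checked against genes that mark them. Slc6a3, the dopamine transporter, averaged 1595 CPM in the VTA and 0.27 to 6.05 CPM in the other regions. Its highest library held 159.8 CPM in the vHipp (median 0.95 CPM) and 62.0 CPM in the NAc (median 0.52 CPM). Ppp1r1b, the striatal phosphoprotein DARPP-32, averaged 1889 CPM in CPu and 1096 CPM in NAc libraries, 252 CPM in the BLA and 27.8 to 90.96 CPM elsewhere. Slc17a7, a vesicular glutamate transporter, averaged 811 to 1509 CPM in the PFC, vHipp and BLA and 12.2 to 54.4 CPM in the other regions. Prox1, a transcription factor of dentate granule cells, averaged 89.4 CPM in the vHipp and 13.8 to 32.1 CPM in the other regions. Its vHipp libraries ran from 9.84 to 216 CPM, so some lay at the level of the other regions. In 27 libraries the mean log2 level of a cell type marker list lay more than 5 scaled median absolute deviations from the median of its region, and results are also given without them where that changed a call. In 21 libraries, 19 of them from SC mice and 2 from CS mice, the predicted gene Gm20594 exceeded 1 CPM. Because these are bulk tissue libraries, fewer cells of a type and less RNA per cell cannot be told apart.

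Opioid peptides are cut from large precursor proteins, usually at pairs of the basic residues lysine and arginine. Enkephalins from Penk act mainly on the delta and mu receptors, dynorphins from Pdyn on the kappa receptor and nociceptin from Pnoc on its own receptor, Oprl1. All 4 receptors couple to inhibitory G proteins, which lower cyclic AMP, open potassium channels and reduce transmitter release. In the rodent striatum Penk is known as a gene of projection neurons with the dopamine receptor Drd2, and Pdyn of those with Drd1. Kappa receptors on dopamine neurons and their terminals are known to limit dopamine release, and mu receptors in the VTA are known from inhibitory neurons that act on dopamine cells.

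The shared core of the 3 precursors is shown here because it separates the enkephalin and dynorphin genes from the nociceptin gene. The mm10 genome with GENCODE M21 coding sequences held 7 copies of a tyrosine-glycine-glycine-phenylalanine core in Penk (268 residues), 3 in Pdyn (248 residues) and 1 phenylalanine-glycine-glycine-phenylalanine core in Pnoc (212 residues). Each line gives the coding strand, 5′ to 3′, with the codons of the core in capitals and the codons of the preceding residue pair before them. All 3 genes lie on the minus strand, so the copy number runs from high to low coordinates.
Penk copy 1, chr4:4134328-4134354: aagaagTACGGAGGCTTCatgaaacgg
Penk copy 6, chr4:4133935-4133961: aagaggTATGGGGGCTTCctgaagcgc
Penk copy 7, chr4:4133842-4133868: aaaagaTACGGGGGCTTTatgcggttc
Pdyn copy 1, chr2:129688232-129688258: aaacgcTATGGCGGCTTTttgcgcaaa
Pdyn copy 2, chr2:129688124-129688150: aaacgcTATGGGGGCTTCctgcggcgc
Pdyn copy 3, chr2:129688067-129688093: aagcgcTATGGTGGTTTCctgcggcgt
Pnoc copy 1, chr14:65404872-65404898: aaaaggTTTGGGGGCTTCaccggggcc
The residue after the core is methionine in 6 copies and leucine in 1 copy of Penk, and leucine in all 3 copies of Pdyn. All 11 cores follow a basic pair. A basic pair also comes directly after the fifth residue in 5 Penk copies and all 3 Pdyn copies, and not in Pnoc.

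The genes sit on 5 chromosomes of mm10. Pdyn (ENSMUSG00000027400) spans chr2:129686565-129699844 with 2887 exon bases, Penk (ENSMUSG00000045573) chr4:4133531-4138819 with 1634, and Pnoc (ENSMUSG00000045731) chr14:65400673-65425472 with 2157. Oprm1 (ENSMUSG00000000766) spans chr10:6758506-7038198 on the plus strand with 8037 exon bases, and Oprd1 (ENSMUSG00000050511) chr4:132110726-132144486 on the minus strand with 4021. Oprk1 (ENSMUSG00000025905) spans chr1:5588466-5606131 with 9151 exon bases and Oprl1 (ENSMUSG00000027584) chr2:181715016-181720985 with 3753, both on the plus strand. Of the Penk exon bases, 233 (14.3%) overlap the antisense gene A830012C17Rik, and 96 Oprm1 exon bases (1.2%) overlap genes on the other strand. The strand setting of the counting is not given in the sources used here, so reads from those bases cannot be assigned to 1 strand.

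Penk had the highest level per length of the 7 genes, and Oprm1 the lowest. Over the 6 regional means Penk averaged 445 CPM per kb, Pdyn 34.8, Oprl1 16.7, Oprd1 5.01, Pnoc 4.66, Oprk1 3.57 and Oprm1 0.571 CPM per kb. The order of the receptors depended on the region. In the CPu Oprd1 stood highest among them at 8.81 ± 1.39 CPM per kb (SD, n = 42), with Oprl1 at 6.67 ± 1.42 and Oprk1 at 4.89 ± 1.147 CPM per kb. In the VTA Oprl1 stood highest at 27.9 ± 2.35 CPM per kb (SD, n = 31), with Oprk1 at 4.46 ± 0.995 and Oprd1 at 1.29 ± 0.291 CPM per kb. Oprm1 lay between 0.222 CPM per kb in the vHipp and 1.03 CPM per kb in the NAc.

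**Figure D1:**
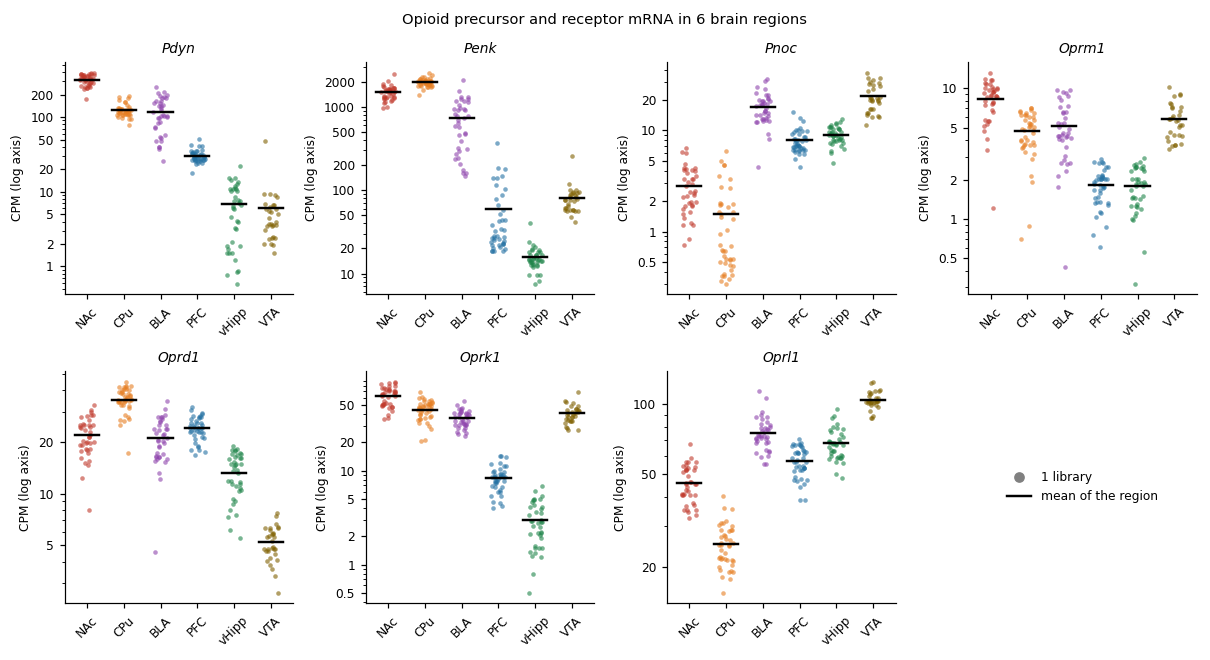
Level of each opioid gene in the 6 regions, with 1 point per library (CPM, log axis) and a bar at the mean of the region. Penk and Pdyn stand highest in the striatal regions and Pnoc and Oprl1 in the VTA, where Oprl1 averaged 104.6 CPM.

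Penk stood highest in the 2 striatal regions and next in the BLA. It averaged 1975 ± 213 CPM in the CPu (SD, n = 42), 1496 ± 287 CPM in the NAc (n = 39) and 735 ± 459 CPM in the BLA (n = 38). The VTA averaged 80.9 ± 37.9 CPM (n = 31), the PFC 60.2 ± 67.6 CPM (n = 41) and the vHipp 15.6 ± 5.41 CPM (n = 39). The mean of the CPu was 127 times that of the vHipp. The NAc libraries held less Penk than the CPu libraries by 0.42 on the log2 scale (log2 fold change, NAc over CPu, -0.42, SE 0.146, adjusted p = 0.0101, limma with the mouse as block), the smallest of the 15 differences between regions for this gene. In the S24 libraries alone it was -0.37 (adjusted p = 0.185). The call of the PFC over the vHipp for Penk was also lost in those libraries (0.55, adjusted p = 0.115, limma). Within a region the spread was narrow in the CPu, where the libraries lay between 1387 and 2581 CPM, and wide in the PFC, where they lay between 18.4 and 368 CPM with a median of 28.2 CPM.

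Pdyn stood highest in the NAc, the reverse of the order of Penk in the striatum. It averaged 317 ± 51.4 CPM in the NAc, 124 ± 24.7 CPM in the CPu, with 118 ± 58.1 CPM in the BLA and 30.5 ± 5.94 CPM in the PFC. The vHipp averaged 6.88 ± 5.25 CPM and the VTA 6.09 ± 8.17 CPM (SD over the same libraries). The NAc exceeded the CPu (log2 fold change 1.36, SE 0.114, adjusted p = 1.02e-23, limma), and the CPu exceeded the BLA by 0.28 (adjusted p = 0.0210), or by 0.23 (adjusted p = 0.0514) without the libraries that stand apart. The vHipp and VTA, neighbours at the low end, did not differ by the test (0.08, adjusted p = 0.758). In these 2 regions the coefficient of variation was 76.3% and 134%, against 16.2% in the NAc. Without the VTA library with 48.3 CPM, the highest of 31, the VTA value was 50.2%.

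Pnoc ran the other way, with its lowest levels in the striatum. It averaged 21.8 ± 6.95 CPM in the VTA, 17.2 ± 5.77 CPM in the BLA, 9.06 ± 1.79 CPM in the vHipp, 7.97 ± 2.16 CPM in the PFC, 2.84 ± 1.47 CPM in the NAc and 1.48 ± 1.47 CPM in the CPu. The PFC and vHipp did not differ by the test (log2 fold change -0.18, adjusted p = 0.159, limma). In the S24 libraries alone, the calls of the BLA against the VTA (-0.38, adjusted p = 0.0602, limma) and of the NAc against the CPu (0.80, adjusted p = 0.0868, limma) were lost. In the CPu the median library held 0.726 CPM and the highest 6.27 CPM.

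Among the receptors, Oprk1, the receptor for dynorphins, varied most between regions. It averaged 62.8 ± 14.5 CPM in the NAc, 44.7 ± 10.5 CPM in the CPu, 40.8 ± 9.11 CPM in the VTA and 36.2 ± 7.45 CPM in the BLA, and 8.45 ± 2.58 CPM in PFC and 3.01 ± 1.54 CPM in vHipp libraries, a ratio of 20.9 from highest to lowest. The CPu and VTA did not differ by the test over all groups (0.11, adjusted p = 0.176), but in the S24 libraries alone the CPu stood 0.48 above the VTA (adjusted p = 0.00229). The BLA lay below the VTA by a call that was lost without the libraries that stand apart (-0.12, adjusted p = 0.191) and in the S24 libraries alone (-0.096, adjusted p = 0.576). Oprm1, the main target of morphine, averaged 8.27 ± 2.57 CPM in the NAc, 5.84 ± 1.82 CPM in the VTA, 5.17 ± 2.40 CPM in the BLA and 4.68 ± 1.61 CPM in the CPu. The PFC (1.82 ± 0.566 CPM) and the vHipp (1.78 ± 0.629 CPM) held the lowest Oprm1 levels. Neither the CPu and BLA (-0.06, adjusted p = 0.683) nor the PFC and vHipp (0.09, adjusted p = 0.693) differed by the test for Oprm1. The call of the NAc over the VTA for Oprm1 was lost in the S24 libraries alone (0.17, adjusted p = 0.534, limma). That of the BLA below the VTA was lost with no replicate block (-0.27, adjusted p = 0.0560, limma).

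Oprd1, the enkephalin receptor, had its highest level in the CPu, as Penk did. It averaged 35.4 ± 5.59 CPM in the CPu, 24.1 ± 3.73 CPM in the PFC, 21.9 ± 5.44 CPM in the NAc and 21.1 ± 5.94 CPM in the BLA, and 13.2 ± 3.72 CPM in the vHipp and 5.19 ± 1.17 CPM in the VTA. The NAc did not differ from the BLA (0.10, adjusted p = 0.253) or from the PFC (-0.15, adjusted p = 0.0591) by the test over all libraries. It passed against the BLA in the S24 libraries alone (0.29, adjusted p = 0.0477) and against the PFC without the libraries that stand apart (-0.19, adjusted p = 0.0179). Oprl1 had the order of its ligand gene Pnoc at both ends, with 104.6 ± 8.82 CPM in the VTA and 25.0 ± 5.34 CPM in the CPu. Between them stood the BLA with 75.5 ± 12.6 CPM, the vHipp with 68.0 ± 10.4 CPM, the PFC with 56.9 ± 8.32 CPM and the NAc with 45.8 ± 8.36 CPM, and each of the 15 differences between regions passed the test for Oprl1. In the S24 libraries alone 3 of the 15 did not, the BLA over the PFC (0.17, adjusted p = 0.122), the PFC over the vHipp (-0.17, adjusted p = 0.155) and the BLA over the vHipp (-0.00069, adjusted p = 0.996).

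Of the differences between 2 regions (15 pairs for each of 7 genes), 98 passed an adjusted p of 0.05 and 7 did not. Over all 18927 genes tested and all pairs, 73.5% passed, and 58.5% between the NAc and CPu. Across the 36 means of region and condition, Oprl1 and Pnoc had a Pearson r of 0.95 and Oprk1 and Oprm1 of 0.89, while Oprd1 and Oprm1 had an r of -0.03. These are descriptions over 36 means that share mice and regions, so they carry no p.

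For each opioid gene the 3 genes with the most similar pattern were taken by Pearson r of log2(CPM + 0.5) over the same 36 means. Pdyn was most like Slc4a11 (0.98), G630016G05Rik (0.97) and Gpr83 (0.97), and Penk most like Six3 (0.98), Slc9a5 (0.98) and Brca1 (0.97). Six3 is a transcription factor of the developing forebrain and striatum. Pnoc was most like Smyd2, Camk2n2 and Afmid (each 0.97). Among the receptors, Oprm1 was most like Gm14204 (0.96), Gad2 (0.95) and Fchsd2 (0.95), of which Gad2 makes the transmitter GABA. Oprd1 was most like Gm37711 (0.99), Cacnb1 (0.98) and Myt1l (0.97), Oprk1 most like Vat1l (0.97), Erich3 (0.97) and Gtf2ird1 (0.96), and Oprl1 most like Klhdc10, Slc1a6 and Kcnj16 (each 0.98).

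Within a region, Pdyn and Penk varied together from library to library in 5 of the 6 regions. With the condition means removed, log2(CPM + 0.5) of Pdyn and Penk had a Pearson r of 0.94 in the BLA (Spearman rho 0.92, n = 38), 0.86 in the VTA (rho 0.80, n = 31) and 0.81 in the NAc (rho 0.86, n = 39). The r was 0.69 in the vHipp (rho 0.71, n = 39) and 0.68 in the PFC (rho 0.57, n = 41). Each of these 5 had a p of at most 5e-05 for r and at most 0.00077 for rho by 100000 two-sided permutations within conditions, and of at most 6e-05 for r after adjustment over the 6 regions. Leaving out the 2 libraries farthest from the median of Pdyn gave an r of 0.93 in the BLA, 0.75 in the VTA, 0.81 in the NAc, 0.61 in the vHipp and 0.71 in the PFC. Without the libraries that stand apart the r of the PFC was 0.44 (n = 38, p = 0.0227, permutation), while the other 4 lay between 0.65 and 0.94. The CPu, where Penk is highest, had an r of -0.21 (p = 0.175) and a rho of 0.04. In the PFC the relation was 0.84 among the libraries of the 30 d mice and 0.10 among those of the 24 h mice. The vHipp libraries fall into a low and a high Prox1 set, described below. Pdyn and Penk were not related within each set.

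**Figure D2:**
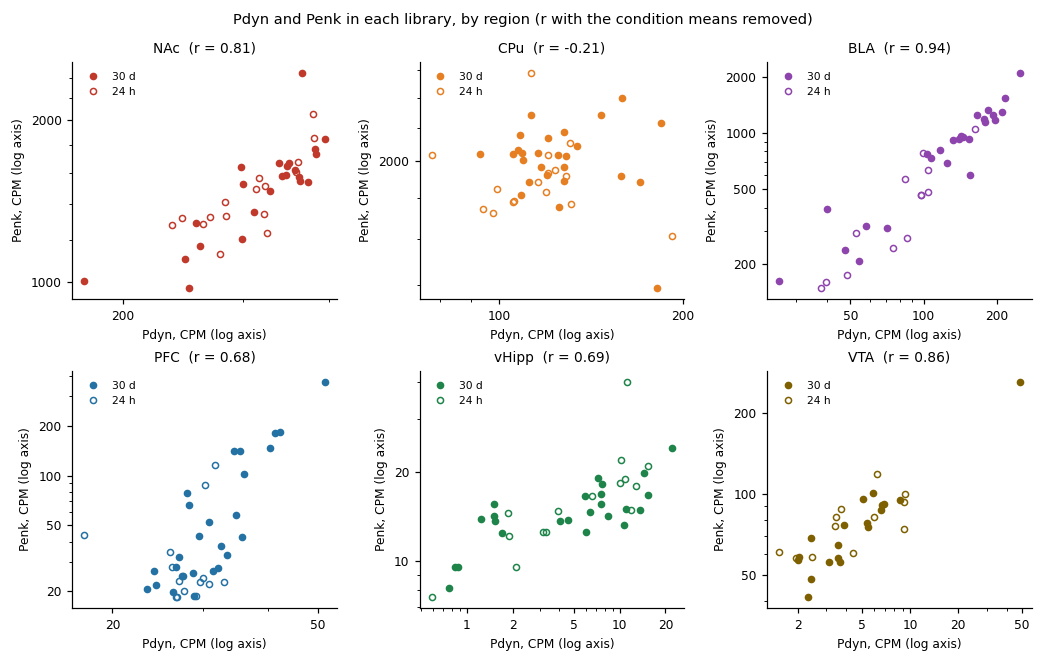
Pdyn against Penk in the libraries of each region (CPM, log axes), 1 point per library, filled for the 30 d mice and open for the 24 h mice. The points form a rising band in the BLA (r 0.94), VTA, NAc, vHipp and PFC and none in the CPu (r -0.21).

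Marker lists of cell types were set beside each gene, and 30.0% of the 714 relations of a gene with a list or with Prox1 in a region had an adjusted p under 0.05. In the PFC, Penk followed the mean log2 level of 4 markers of Drd2-type striatal projection neurons (Drd2, Adora2a, Gpr6 and Gpr52), with an r of 0.98 (rho 0.92, n = 41, adjusted p = 0.000146, permutation). In the BLA the same relation had an r of 0.97 (rho 0.96, n = 38, adjusted p = 0.000146, permutation). Without the 2 libraries farthest from the median of the list, r was 0.97 in both regions. The summed level of the list ran between 8.33 and 157 CPM in PFC libraries and between 23.3 and 471 CPM in BLA libraries. In the BLA, Pdyn followed the list of 7 striatal projection neuron genes (r 0.90, rho 0.91, adjusted p = 0.000146, permutation), and Penk followed the list of central amygdala and intercalated cell genes (r 0.91, rho 0.87, adjusted p = 0.000146, permutation). The striatal projection neuron list and the central amygdala and intercalated cell list share the gene Ppp1r1b. The part of neighbouring tissue in these levels was not tested.

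In the striatum itself, Penk had an r of 0.87 with the Drd2-type list in the NAc (rho 0.84, adjusted p = 0.000146, permutation) and of 0.70 in the CPu (rho 0.58, adjusted p = 0.00034, permutation). The relation of Pdyn with markers of Drd1-type neurons is not given here. Between the striatal regions, Drd1 averaged 256 CPM in the NAc and 415 CPM in the CPu, the reverse of the order of Pdyn. Drd2 averaged 114 CPM in the NAc and 227 CPM in the CPu, the order of Penk. Oprk1 ran with the striatal list in the NAc (r 0.87, rho 0.90), while Oprl1 (r -0.80, rho -0.77) and Pnoc (r -0.76, rho -0.76) ran against it, each with an adjusted p of 0.000146 by permutation. In the CPu, Pnoc (r 0.81, rho 0.76) and Oprl1 (r 0.74, rho 0.66) ran with the central amygdala and intercalated cell list, each with an adjusted p of 0.000146 by permutation. In the VTA, Oprk1 had an r of 0.83 with the 6 genes of dopamine neurons (rho 0.84, n = 31, adjusted p = 0.000146, permutation). Without the 2 libraries farthest from the median of the list, these relations had an r of 0.83 and 0.48 for Penk in the NAc and CPu, 0.87, -0.78 and -0.69 for Oprk1, Oprl1 and Pnoc in the NAc, 0.78 and 0.69 for Pnoc and Oprl1 in the CPu and 0.87 for Oprk1 in the VTA.

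In the vHipp, Pdyn went with Prox1, the marker of dentate granule cells, which are a known site of Pdyn in the mouse hippocampus. The libraries fell apart into 27 with 51.1 to 216 CPM of Prox1 and 12 with 9.84 to 25.6 CPM, so no r over all 39 is given. Among the 27, with condition means kept, Pdyn and Prox1 had an r of 0.88 and a rho of 0.91 (p = 1e-05 for each, the smallest that 100000 permutations can give). Unlike the other relations, the permutations within each set ran across conditions. All 6 SS libraries were among the 27, so differences between groups are not separated from this relation. Among the 12, the r was 0.30 (p = 0.335) and the rho 0.43 (p = 0.162). The low set held 1 library of CC mice, 3 of CS mice, 4 of SC mice and none of SS mice, and 1 of C24 mice and 3 of S24 mice.

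**Figure D3:**
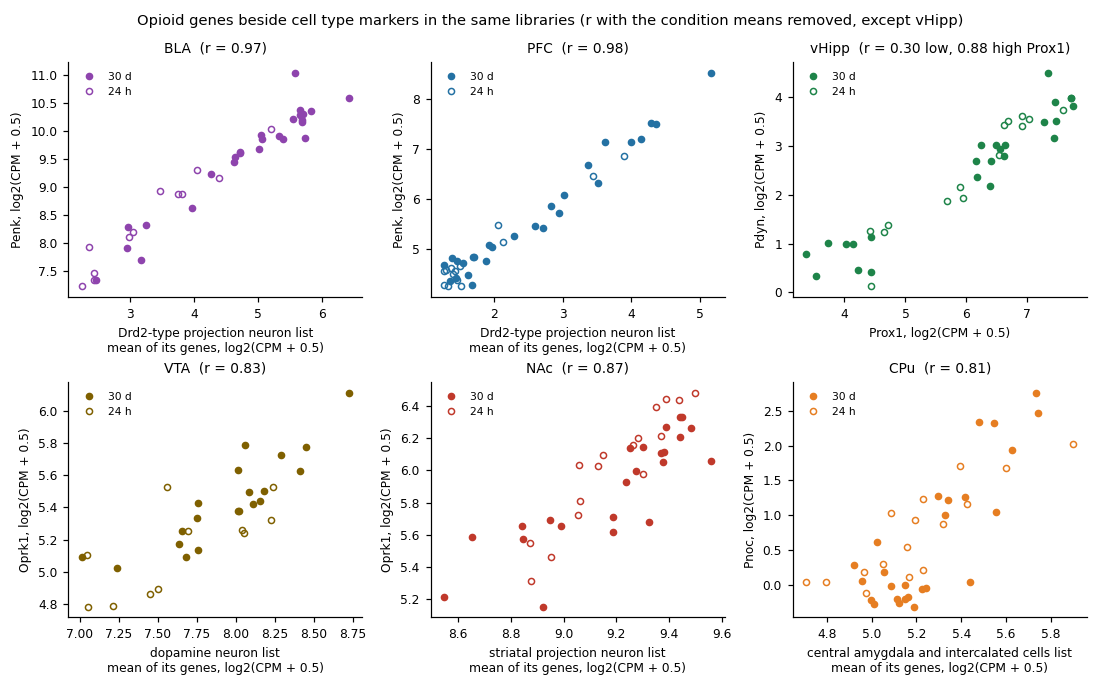
Opioid genes against marker lists, 1 point per library (log2(CPM + 0.5) on both axes, for a list the mean of its genes), filled for the 30 d mice and open for the 24 h mice. Penk lies close to a line with the Drd2-type list in the BLA and PFC (r 0.97 and 0.98), the vHipp libraries fall into a low and a high Prox1 set, and Oprk1 in the VTA and NAc and Pnoc in the CPu scatter more widely (r 0.83, 0.87 and 0.81).

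Cocaine moved none of the 7 genes past an adjusted p of 0.05 in any region. The contrasts were C24 against S24 for 24 h of withdrawal, CS against SS for cocaine history, SC against SS for a first cocaine injection, CC against SS for history with injection, CC against CS for renewed cocaine, and the interaction of history with injection. Of the 252 tests of a gene in a region and contrast, 0 passed (edgeR quasi-likelihood test, Benjamini-Hochberg adjustment over all genes of a region and contrast), and the smallest adjusted p was 0.246. DESeq2 and limma voom also gave 0. Over all genes the same tests passed in 0.000983% of cases. At an unadjusted p under 0.05, edgeR counted 21 of the 252 tests (8.33%), DESeq2 22 and limma voom 21, beside 3.93% of tests over all genes. Of these 21, the vHipp held 13, the VTA 7 and the BLA 1. Averaged over the 6 regions, 0 of 42 tests passed (limma voom with the mouse as block), beside 0.182% of the same tests over all genes. At an unadjusted p under 0.05 there were 3, Oprk1 in CS against SS (0.24, SE 0.114) and Oprd1 in CC against CS (-0.20, SE 0.101) and in the interaction (-0.33, SE 0.135), beside 5.22% over all genes.

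**Figure D4:**
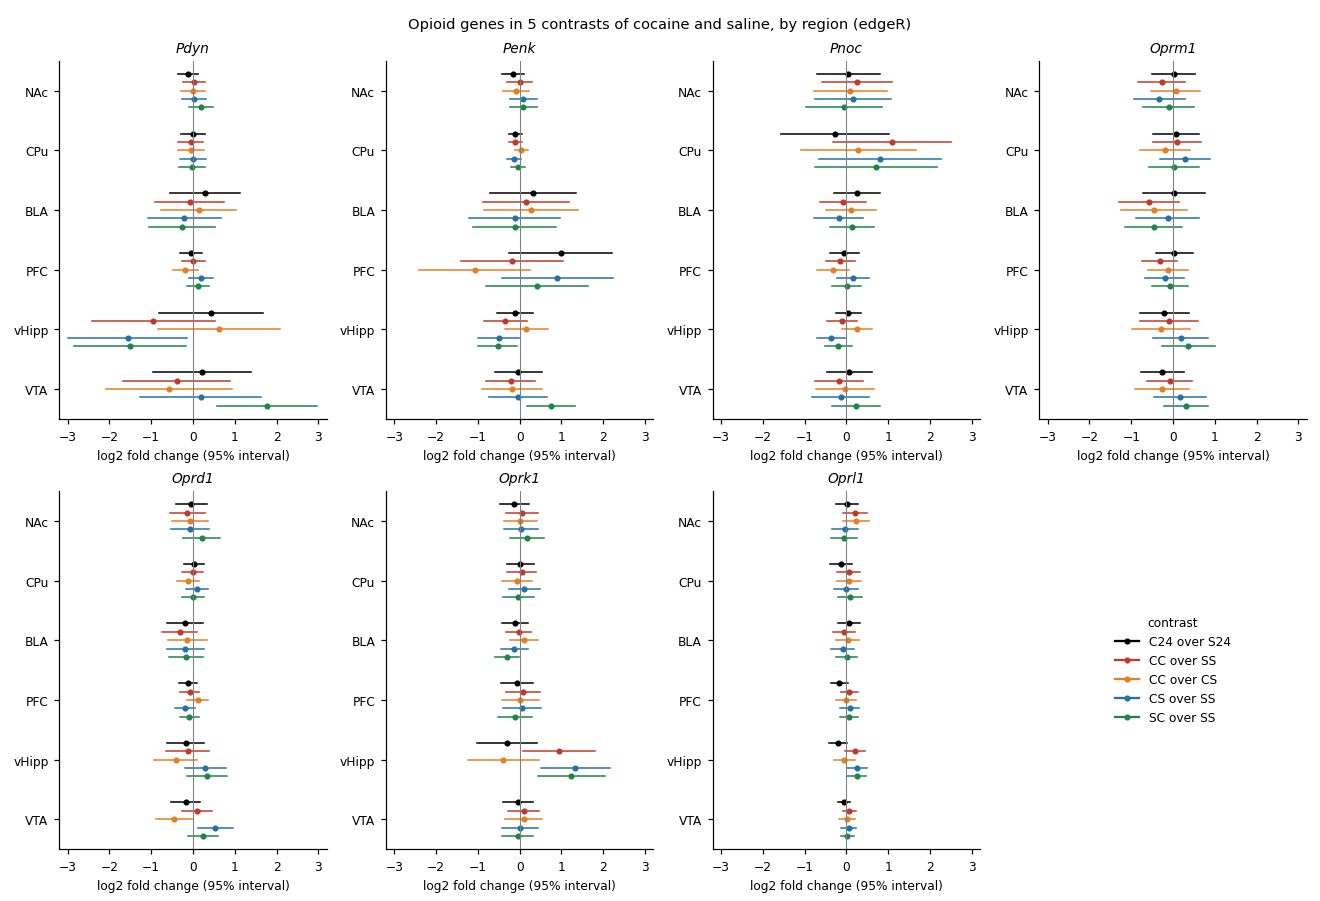
Log2 fold change of each opioid gene in each region and contrast, with 95% intervals from the edgeR fit. The intervals are short for Penk in the CPu and Oprl1 in the VTA and long for Pdyn in the vHipp and VTA and for Penk in the PFC.

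How large a change the data could hide differed between genes and regions. Over C24 against S24, CS, SC and CC against SS, and CC against CS, the 95% intervals of the fold change in Penk in the CPu stayed between 0.807 and 1.16. The same bounds were 0.745 and 1.33 for Penk in the NAc, 0.777 and 1.39 for Pdyn in the NAc, 0.780 and 1.24 for Pdyn in the CPu and 0.869 and 1.18 for Oprl1 in the VTA. For Penk in the PFC they were 0.189 and 4.67, for Pdyn in the vHipp 0.127 and 4.24, for Pdyn in the VTA 0.237 and 7.81 and for Pnoc in the CPu 0.335 and 5.63.

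Striatal Pdyn, a transcript that repeated psychostimulants are known to raise in rodents, overlapped between the groups of the NAc. The SC mice had only a first cocaine injection, while the C24, CS and CC mice had self-administered cocaine. The SC libraries held 310, 342, 362, 363 and 394 CPM, and the SS libraries lay between 176 and 382 CPM with a median of 343 CPM. The SC mean was 354 ± 30.9 CPM (SD, n = 5) and the SS mean 310 ± 77.6 CPM (n = 6), and the log2 fold change was 0.19 (SE 0.143, adjusted p = 1.00, edgeR). All but 1 of the SC libraries lay within the range of the SS libraries. After 24 h of withdrawal the C24 libraries lay between 236 and 360 CPM (median 300 CPM) and the S24 libraries between 268 and 380 CPM (median 318 CPM), and the log2 fold change was -0.12 (SE 0.118, adjusted p = 1.00, edgeR). In the CPu Pdyn averaged 129 CPM in SC mice and 130 CPM in SS mice (log2 fold change -0.02, SE 0.153). Penk in the CPu averaged 1833 ± 151.1 CPM in C24 mice and 1981 ± 266 CPM in S24 mice (SD, n = 8 each), and the log2 fold change was -0.10 (SE 0.0741, adjusted p = 0.889, edgeR).

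The vHipp held the smallest adjusted p of the 252 tests, for Oprk1 in CS against SS mice. The CS libraries lay between 2.78 and 6.04 CPM with a median of 3.74 CPM, and the SS libraries between 0.5003 and 2.88 CPM with a median of 1.43 CPM. The highest SS library stood above 2 of the 6 CS libraries. The log2 fold change was 1.32 (SE 0.407, unadjusted p = 0.00246, adjusted p = 0.246, edgeR). SC libraries lay between 1.22 and 6.90 CPM (log2 fold change over SS 1.24, SE 0.395, adjusted p = 0.504) and CC libraries between 1.94 and 4.66 CPM (0.93, SE 0.424, adjusted p = 0.871). The SS group held the lowest Oprk1 mean of the region, and all 3 contrasts share it.

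Pdyn in the vHipp had the opposite sign. CS libraries lay between 0.764 and 10.97 CPM (median 3.06 CPM), SC libraries between 0.831 and 13.5 CPM (median 1.71 CPM) and SS libraries between 7.18 and 22.2 CPM (median 11.01 CPM). The log2 fold change was -1.56 for CS over SS (SE 0.697, unadjusted p = 0.0311, adjusted p = 0.303, edgeR) and -1.51 for SC over SS (SE 0.661, unadjusted p = 0.0282, adjusted p = 0.509, edgeR). Prox1 moved with these groups. It stood at 11.04, 15.7, 17.1, 70.9, 71.8 and 177 CPM in CS libraries, between 12.8 and 216 CPM in SC libraries and between 75.5 and 211 CPM in SS libraries. With log2 Prox1 as a covariate, chosen after seeing the data, the CS over SS value of Pdyn was -0.36 (adjusted p = 0.511) and that of Oprk1 0.94 (adjusted p = 0.379).

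Penk and Pnoc in the vHipp had the sign of Pdyn, and the nociceptin receptor Oprl1 that of Oprk1, with smaller values. Penk lay between 8.10 and 15.52 CPM in CS libraries and between 15.55 and 24.1 CPM in SS libraries (log2 fold change -0.51, SE 0.241, adjusted p = 0.326, edgeR). Pnoc lay between 4.81 and 10.9 CPM in CS libraries (median 8.19 CPM) and between 8.87 and 12.05 CPM in SS libraries (median 9.91 CPM). The fold change of Pnoc on the log2 scale was -0.37 (SE 0.167, adjusted p = 0.311, edgeR). Oprl1 lay between 59.7 and 87.8 CPM in CS libraries (median 72.9 CPM) and between 48.3 and 68.6 CPM in SS libraries (median 61.1 CPM), and the fold change was 0.26 (SE 0.117, adjusted p = 0.310, edgeR). With log2 Prox1 as a covariate these values were -0.19 for Penk, -0.18 for Pnoc and 0.11 for Oprl1. In CS against SS, 5 of the 7 opioid genes had an unadjusted p under 0.05, beside 14.8% of all genes in that contrast. In SC against SS it was 4 of 7 beside 9.44%, in CC against SS 1 of 7 beside 5.31% and in the interaction 3 of 7 beside 11.2%. The interaction values were 2.13 for Pdyn (SE 0.977, adjusted p = 0.424), -0.75 for Oprd1 (SE 0.346, adjusted p = 0.426) and -1.63 for Oprk1 (SE 0.575, adjusted p = 0.405).

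**Figure D5:**
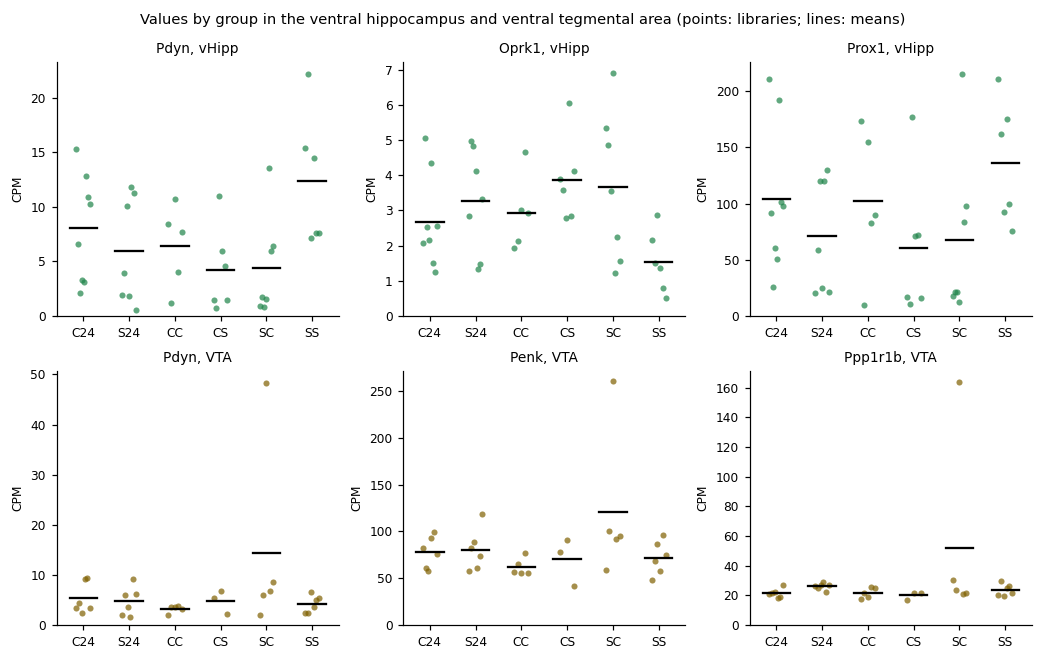
Pdyn, Oprk1 and Prox1 in the vHipp and Pdyn, Penk and Ppp1r1b in the VTA by group (CPM), 1 point per library with a line at the group mean. Pdyn and Prox1 stand highest in the SS mice of the vHipp, where Oprk1 stands lowest, and 1 SC library of the VTA stands apart with 48.3 CPM of Pdyn, 260.1 CPM of Penk and 164 CPM of Ppp1r1b.

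In the VTA, the values of Pdyn in SC against SS mice and in the interaction were wide, and 1 library carried most of both. The SC libraries held 2.03, 5.91, 6.89, 8.63 and 48.3 CPM, and the SS libraries lay between 2.42 and 6.57 CPM with a median of 4.33 CPM. The log2 fold change was 1.77 (SE 0.583, unadjusted p = 0.00552, adjusted p = 0.903, edgeR). The SC library with 48.3 CPM also held 260.1 CPM of Penk, beside 58.5 to 100 CPM in the other SC libraries and 48.3 to 96.0 CPM in SS libraries. Its summed striatal projection neuron list stood at 932 CPM, while the SC median was 196 CPM and SS libraries lay between 177 and 205.5 CPM. Without that library the log2 fold change of Pdyn was 0.45 (adjusted p = 0.948, edgeR) and that of Penk 0.25 (adjusted p = 0.931, edgeR). The interaction was -2.33 for Pdyn (SE 0.931) and -0.93 for Penk (SE 0.446, adjusted p = 0.996 for each, edgeR), and without that library -1.02 for Pdyn and -0.44 for Penk.

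Oprd1 in the VTA stood at 6.29, 6.42 and 7.70 CPM in the 3 CS libraries and between 2.63 and 5.82 CPM in SS libraries. The log2 fold change was 0.53 (SE 0.203, unadjusted p = 0.0131, adjusted p = 0.959, edgeR), in a contrast where 4.63% of all genes had an unadjusted p under 0.05 and 1 of the 7 opioid genes did. CC libraries lay between 4.61 and 6.30 CPM, with a log2 fold change of -0.44 over CS (SE 0.211, adjusted p = 1.00, edgeR). The interaction of Oprd1 was -0.69 (SE 0.275, adjusted p = 0.996, edgeR). At an unadjusted p under 0.05 there were 2 of the 7 opioid genes in SC against SS beside 5.36% of all genes, 1 in CC against CS beside 1.35% and 3 in the interaction beside 3.65%. In the BLA, Oprk1 averaged 32.7 ± 5.43 CPM in SC mice and 40.5 ± 6.01 CPM in SS mice (SD, n = 7 each), with a log2 fold change of -0.31 (adjusted p = 0.873, edgeR).

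Penk in the PFC had wide fold changes and a wide spread within groups. The CS libraries ran between 20.8 and 368 CPM with a median of 52.2 CPM, the CC libraries between 18.7 and 180 CPM with a median of 26.6 CPM, and the SS libraries between 25.8 and 183.5 CPM with a median of 42.4 CPM. CC over CS gave -1.08 on the log2 scale (SE 0.651, adjusted p = 1.00, edgeR) and C24 over S24 one of 0.98 (SE 0.605, adjusted p = 0.661, edgeR). C24 libraries lay between 18.4 and 115.3 CPM (median 28.8 CPM) and S24 libraries between 18.8 and 28.1 CPM (median 23.1 CPM), and 4 of the 8 C24 libraries stood above the highest S24 library. Leaving out each CS library in turn moved the CC over CS value between -1.35 and 0.09. The Drd2-type list moved with Penk here, reaching 157 CPM in CS libraries, 86.0 CPM in CC libraries and 62.2 CPM in C24 libraries and 11.8 CPM in S24 libraries.

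The first-injection effect on Pdyn differed between regions by the test of that difference. The 5 differences between the 6 regional values of SC over SS gave an F of 6.80 and an adjusted p of 0.0319 (limma, mouse as block), the only opioid gene called in this contrast, beside 0.037% of all genes. The regional values of the edgeR fits were -1.51 in the vHipp and 1.77 in the VTA, and between -0.26 and 0.19 in the other 4 regions. The call did not hold without the SC library of the VTA with 48.3 CPM of Pdyn (F 5.72, adjusted p = 0.113), without all 27 libraries that stand apart (F 5.47, adjusted p = 0.219) or without the 21 libraries with Gm20594 (F 2.52, adjusted p = 1.00). No opioid gene passed this test in the other 5 contrasts, where 0.0106% of tests over all genes did.

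The contrast of SS with S24 mice was added after seeing the data. Both had self-administered saline. They are different mice that differ in withdrawal time (30 d or 24 h) and in the injection, which cannot be told apart. Over the 6 regions, 3 of the 7 opioid genes passed an adjusted p of 0.05, beside 31.6% of all genes, and 5 with no replicate block (Penk and Oprm1 in addition). Pdyn rose (log2 fold change 0.45, SE 0.165, adjusted p = 0.0270, limma), though not with 1 mean per mouse (0.46, adjusted p = 0.0869), and Oprk1 fell by 0.32 (SE 0.107, adjusted p = 0.0146) and Oprl1 by 0.17 (SE 0.0550, adjusted p = 0.0101) on the log2 scale. Penk had 0.39 (adjusted p = 0.0561), Oprm1 0.37 (adjusted p = 0.0538), Oprd1 0.07 (adjusted p = 0.580) and Pnoc -0.12 (adjusted p = 0.605). The group means did not move the same way in all regions. Mean Oprk1 was higher in SS than S24 mice in the BLA (40.5 and 34.9 CPM) and VTA (43.4 and 36.4 CPM), and lower elsewhere. Mean Pdyn was lower in SS mice in the NAc (310 and 322 CPM) and VTA (4.26 and 4.75 CPM), and higher elsewhere. Mean Oprl1 was higher in SS mice in the BLA alone (78.4 and 71.2 CPM). The difference between regions was not tested for this contrast.

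In single regions, 2 of 42 tests of SS against S24 passed, beside 9.45% over all genes. In the CPu, Oprl1 fell by 0.41 on the log2 scale (adjusted p = 0.0269, edgeR), with 18.9 to 27.5 CPM in SS libraries (median 21.6 CPM) and 21.8 to 40.2 CPM in S24 libraries (median 28.8 CPM), where 16.9% of all genes passed. With no filter on low counts the adjusted p was 0.0548. In the PFC, Oprm1 rose by 0.71 (adjusted p = 0.0219, edgeR), with 1.57 to 2.89 CPM in SS libraries (median 2.36 CPM) and 0.872 to 1.98 CPM in S24 libraries (median 1.34 CPM), where 14.3% of all genes passed. With the striatal list as a covariate the value was 0.60 (adjusted p = 0.0520). The groups overlap in both. In the BLA, Penk averaged 903 ± 424 CPM in SS mice and 396 ± 222 CPM in S24 mice (SD, n = 7 each; log2 fold change 1.17, adjusted p = 0.0932, edgeR), and Pdyn 149 ± 49.95 CPM and 75.9 ± 23.0 CPM in the same groups (0.96, adjusted p = 0.0896, edgeR). The striatal projection neuron list of the BLA lay between 630 and 2480 CPM in SS mice (median 1565 CPM) and between 552 and 1135 CPM in S24 mice (median 730 CPM). Its part in these values was not tested.

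The other genes of the opioid system were read from lists of 43 genes: 4 other opioid genes, 7 for processing precursors, 8 for peptide breakdown and 24 for receptor coupling. In the planned cocaine contrasts of single regions, 0 of 1548 tests passed and 68 (4.39%) had an unadjusted p under 0.05 (edgeR), beside 3.93% of tests over all genes. Over the 6 regions 0 of 258 passed and 9 (3.49%) had an unadjusted p under 0.05 (limma), beside 5.22% over all genes. In SS against S24 over the 6 regions, 8 of the 43 passed, 4 higher and 4 lower, beside 31.6% of all genes. The 6 with the smallest p were Grk5, Nln, Pcsk1, Pcsk2, Scg5 and Adcy5. Pcsk1, a convertase that cuts the precursors, rose by 0.38 on the log2 scale (SE 0.0815), while Pcsk2, its close relative, fell by 0.18 (SE 0.0491) and Scg5, a chaperone of Pcsk2, by 0.15 (SE 0.0444). Grk5, a receptor kinase, rose by 0.33 (SE 0.0466) and Adcy5, the main adenylyl cyclase of the striatum, by 0.17 (SE 0.0655), and Nln, the peptidase neurolysin, fell by 0.12 (SE 0.0246).

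Between the NAc and the CPu, 35 of the 43 genes passed, 14 higher and 21 lower in the NAc, beside 58.5% of all genes. Of the 7 genes for processing precursors, not all of which cut them, 5 passed, beside the same 58.5%. Those 5 were lower in the NAc. Pcsk1 (-0.17, adjusted p = 0.0754, limma) and Pcsk1n (0.04, adjusted p = 0.634, limma) did not pass. The median log2 fold change of the 7 was -0.17, beside 0.00 over all genes. The share of all genes lower in the NAc was not counted. Of the 43 genes, the 6 with the smallest p were Rgs4, Gnao1, Mme, Pcsk2, Ece1 and Grk2. Rgs4, which speeds the switching off of inhibitory G proteins, was lower in the NAc by 1.54 on the log2 scale (log2 fold change -1.54). Mme, the enkephalin-degrading protease neprilysin, had -1.45, and Pcsk2, a convertase that cuts the precursors, -0.68. Gnao1, a G protein subunit the receptors act through, had -0.46, and Ece1, a peptidase, -0.42. Grk2, a kinase that phosphorylates active receptors, was higher in the NAc (0.34).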

How the data were processed

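The authors deposited 1 table of raw read counts per Ensembl gene, 1 column for each library. The tools HTSeq and limma and the genome build mm10 are named in the submitters' processing notes, without a role. The aligner, annotation release and strand setting are not given in the sources used here. Per the labels' protocols, ribosomal RNA was depleted before library construction, while the molecule is labelled polyA RNA. Total counts ran from 11866570 to 42135683 per library. Symbols and exon lengths came from GENCODE M21, which named 42462 of the 43346 genes.

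Regional contrasts were fitted with edgeR 4.0.16 (quasi-likelihood, robust, TMM; filterByExpr with a minimum count of 10 and total of 15; all 6 conditions of a region in 1 fit). Levels between regions, contrasts over the 6 regions and their difference between regions were fitted with limma 3.58.1 (voom, 36 groups, mouse as block by the number in the library titles, consensus correlation 0.0398), in R 4.3.3. Intervals are at 95%. P-values were adjusted by Benjamini-Hochberg over all genes, with a threshold of 0.05. Libraries of 1 region come from different mice. Log values have a pseudocount of 0.5. The steps were tested on simulated data. DESeq2 1.42.0 and limma voom were alternatives.

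The genes named were the 7 opioid genes, the 3 genes most like each over the 36 means, and of the lists those past the threshold, at most 6 a comparison by smallest p. The members and lists were chosen with earlier results of these data known. The contrast of SS with S24, the covariates and the relations with marker lists were chosen after seeing the data.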

Additional observations from a re-analysis of the deposited data

Results flagged for a closer look

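In groups of 4 to 10 libraries, 245 combinations of gene, region and condition were read for a library far from the rest by Dixon's ratio, and 32 (13.1%) had one, 19 the highest and 13 the lowest of its group. For normally distributed values the ratio would flag about 1 in 20. Whether CPM meet that was not tested, and the genes share libraries, so 1 in 20 is no measure of chance here. Several libraries recur.

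1 VTA library of SC mice held 48.3 CPM of Pdyn and 260.1 CPM of Penk, each above the rest of its group, with 932 CPM in the summed striatal list. In the CPu, 1 library of CS mice stood apart in 4 genes, with 181.6 CPM of Pdyn, 1387 CPM of Penk, 5.04 CPM of Pnoc and 30.9 CPM of Oprl1, of which Penk alone was the lowest of its group. Its Ppp1r1b stood at 1139 CPM and its Slc17a7 at 153 CPM, and the part of neighbouring tissue was not tested. 1 CPu library of SS mice stood apart in 4 genes, with 3.32 CPM of Pnoc (highest) and 0.879 CPM of Oprm1, 17.3 CPM of Oprd1 and 20.8 CPM of Oprk1 (lowest). 1 CPu library of C24 mice held 192 CPM of Pdyn and 3.57 CPM of Pnoc, the highest of its group, and 26.6 CPM of Oprd1, the lowest.

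Other single libraries stood apart for 1 or 2 genes. Pdyn was far below its group in 1 BLA library of CS mice (25.5 CPM) and 1 PFC library of C24 mice (17.6 CPM). Penk was low in the same BLA library of CS mice (161.6 CPM). It was high in 1 CPu library each of SC (2397 CPM) and S24 mice (2581 CPM) and in the vHipp of CC (18.1 CPM) and S24 mice (40.1 CPM). In the PFC, Penk was high in 1 library each of SS (183.5 CPM), CC (179.8 CPM) and CS mice (368 CPM). Pnoc was high in 1 BLA library each of SC (30.98 CPM) and C24 mice (31.9 CPM). Oprm1 was low in 1 NAc library of CS mice (1.22 CPM) and 1 PFC library of CC mice (1.11 CPM). Oprd1 was low in the BLA library of C24 mice with 31.9 CPM of Pnoc (12.2 CPM) and in 1 vHipp library of SC mice (7.98 CPM). It was high in 1 VTA library of CC mice (6.30 CPM). Oprk1 was low in the CPu library of S24 mice with 2581 CPM of Penk (30.3 CPM). Oprl1 was high in the VTA library of CC mice with 6.30 CPM of Oprd1 (114.4 CPM).

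The SC over SS value of Pdyn differed between regions by the test of that difference (F 6.80, adjusted p = 0.0319, limma), with -1.51 in the vHipp and 1.77 in the VTA. Without the SC library of the VTA with 48.3 CPM, the F was 5.72 (adjusted p = 0.113, limma). In the vHipp, the set with low Prox1 held 4 SC libraries and 0 SS libraries. The part of Prox1 in the regional difference was not tested.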

How the results depend on the processing

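In the cocaine contrasts of single regions, no opioid gene was called under DESeq2, limma voom, no filter, without the libraries with Gm20594, without those that stand apart, or with any library of a group of 5 or fewer left out (0 in each, with 13 to 22 of the 252 tests at an unadjusted p under 0.05 under the first 5). Over the 6 regions all settings gave 0. Of the region pairs, 98 were called, 97 with no replicate block, 98 with DESeq2 size factors, 91 in the S24 libraries alone and 97 without the libraries that stand apart. Oprl1 in the BLA over the vHipp changed sign in the S24 libraries alone (-0.00069, adjusted p = 0.996). With no replicate block, SS against S24 over the 6 regions called 5 opioid genes in place of 3, and the regional difference of Pdyn kept an adjusted p of 0.0414. That difference, the 1 call of its kind, gave 0 calls without the Gm20594 libraries, 0 without the SC library of the VTA with 48.3 CPM of Pdyn and 0 without the libraries that stand apart. The first of these leaves out 19 SC libraries. Pdyn in SS against S24 had 0.46 (adjusted p = 0.0869) with 1 mean per mouse, Oprl1 in the CPu -0.41 (adjusted p = 0.0548) with no filter, and Oprm1 in the PFC 0.60 (adjusted p = 0.0520) with the striatal list as a covariate. The causes were not tested.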
